A study of Macaca mulatta with 12 samples.

Results

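The genes followed here encode 10 proteins of the cardiac sarcomere, the contractile unit of heart muscle: MYH6, MYL7, MYL4, MYL3, MYBPC3, ACTC1, TNNT2, TNNI1, TNNI3 and ACTN2. They were chosen by symbol, and all 10 were found among the 16745 genes of the table and passed the filter on low values that left 12042 genes to test. All 12 RNA-seq libraries came from cardiomyocytes derived from induced pluripotent stem cells of the rhesus macaque, kept in RPMI medium with B27 supplement and insulin. They were grown either as a monolayer culture (2D) or as engineered heart tissue (EHT, 3D), in normoxia or with hypoxia, with 3 libraries in each of the 4 groups. Hypoxia was an anaerobic pouch for 24 hours followed by 24 hours with fresh medium. No medium change is recorded for the normoxic cultures, so lack of oxygen and the change of medium cannot be told apart. The labels name no cell line, and they give neither the time of RNA collection nor whether replicates came from separate differentiations, or which other cells the EHT held, so p-values measure the spread between these libraries, which may be technical.

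The sarcomere contracts as myosin heads of the thick filament pull on actin of the thin filament. Myosin heavy chains such as MYH6 carry the motor, essential light chains (MYL4, MYL3) and a regulatory light chain (MYL7) brace its lever arm, and MYBPC3 tunes how myosin heads meet actin. Calcium switches the thin filament on through the troponin complex, whose TNNT2 subunit binds tropomyosin and whose inhibitory subunit is TNNI1 in the fetal and TNNI3 in the adult heart of humans and rodents. ACTC1 is cardiac actin, the thin filament itself. ACTN2, alpha-actinin, belongs to neither filament and cross-links actin at the Z-disc that bounds the sarcomere. MYL7 and MYL4 are the atrial and MYL3 the ventricular light chain forms of the adult human heart.

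Library totals were 4154346 to 11298841 reads. Levels are given as normalised reads, the reads of a gene divided by the library's median-of-ratios factor, which corrects for depth and not for transcript length, so they compare libraries and not genes. In a library of EHT in hypoxia, 3 reads, the limit that a count of 0 allows, were worth 3.80 to 5.70 normalised reads, and this limit covers counting error only. For these genes 3 libraries stood apart. EHT normoxia replicate 3 held 43 reads and EHT hypoxia replicate 3 held 73 reads of the 10 genes together, against 687 and 750 and against 3432 and 5218 in the other libraries of their groups. They were the lowest of their group for 10 of 10 genes, with 2 genes at 0 reads in the former and 4 in the latter. Monolayer normoxia replicate 3 was the lowest of its group for 8 of 10 genes and held 3771 reads of them, against 28685 and 39757. Values without these libraries are given where leaving them out changes a call or moves a called difference or a share by over 1.5 times.

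**Figure D1:**
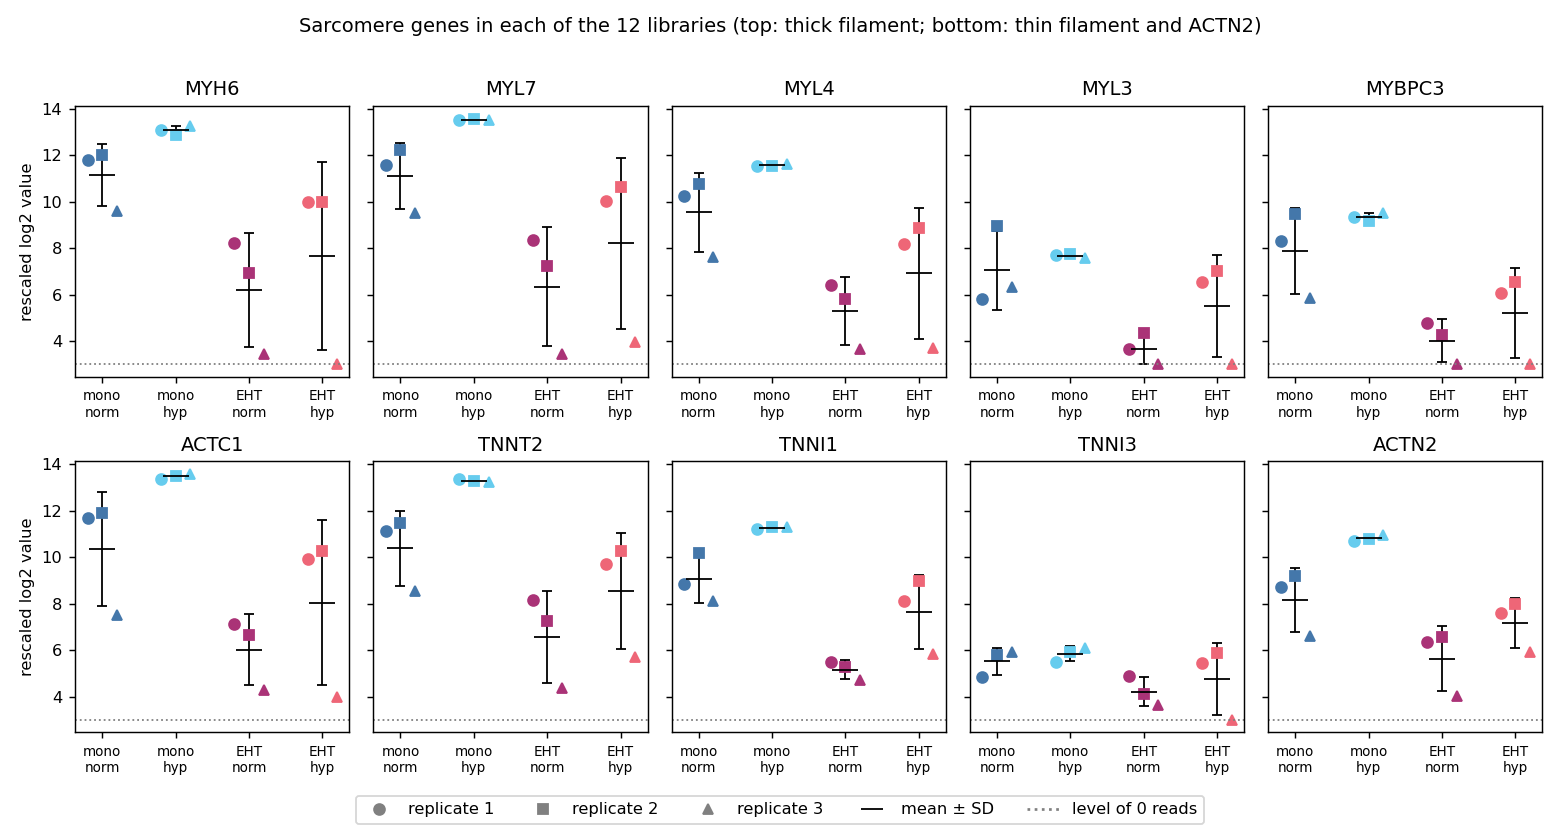
Rescaled log2 value (variance-stabilised reads) of each gene in the 12 libraries, in columns for monolayer normoxia, monolayer hypoxia, EHT normoxia and EHT hypoxia. Symbols mark replicates 1 to 3, bars the mean ± SD (n = 3), and the dotted line the value of a gene with 0 reads. The triangles of replicate 3 lie lowest in both EHT groups for all 10 genes.

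Among the thick filament genes, MYH6 stood at 3659, 4281 and 779 normalised reads in the 3 normoxic monolayers and at 8852, 7734 and 10129 in the hypoxic ones. In EHT its values were 291, 108 and 0.854 in normoxia and 1031, 1027 and 0 in hypoxia. Every EHT library was below every monolayer library except that replicates 1 and 2 of hypoxic EHT exceeded monolayer normoxia replicate 3. MYH6 lies beside its near-identical neighbour MYH7, which is not analysed here, so reads could have been split between these genes by the authors' counting and the level of MYH6 is uncertain.

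MYL7, the atrial regulatory light chain, followed the same course. It stood at 3106, 4978 and 732 normalised reads in normoxic monolayer, at 12009.7, 12566 and 12085 in hypoxic monolayer, at 317, 139 and 0.854 in normoxic EHT and at 1046, 1622 and 3.80 in hypoxic EHT. The hypoxic monolayers varied by 2.47% and the normoxic ones by 72.4% (coefficient of variation, n = 3). Reads of its ventricular counterpart MYL2 were few, at 3, 108 and 0 in the normoxic and 0, 7 and 2 in the hypoxic monolayers, and were 0 in all 6 EHT libraries. The 1 library with an appreciable MYL2 count, monolayer normoxia replicate 2, was the highest of its group for 9 of the 10 genes, all but TNNI3.

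MYL4, the atrial essential light chain, ranged from 186 to 1793 normalised reads in normoxic monolayer, from 3023 to 3218 in hypoxic monolayer, from 1.71 to 72.2 in normoxic EHT and from 1.90 to 469.8 in hypoxic EHT. MYL3, the ventricular form, did not share its order of groups. MYL3 stood at 42.5, 497 and 67.7 normalised reads in normoxic monolayer and at 197, 203 and 182 in hypoxic monolayer, so the hypoxic libraries lay within the spread of the normoxic ones. In EHT its values were 1.76, 7.69 and 0 in normoxia and 79.5, 119 and 0 in hypoxia. The normoxic EHT level of MYL3 rests on 10 reads in all 3 libraries together.

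MYBPC3, the myosin-binding protein whose human mutations cause hypertrophic cardiomyopathy, ranged from 43.7 to 711 normalised reads in normoxic and from 573 to 739.8 in hypoxic monolayer. In EHT it stood at 14.1, 6.84 and 0 in normoxia and at 54.4, 79.8 and 0 in hypoxia. Both EHT groups lay below both monolayer groups on average, with an overlap between hypoxic EHT and monolayer normoxia replicate 3.

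Of the thin filament genes, ACTC1 stood at 3332, 3867 and 172 normalised reads in normoxic and at 10814, 11939 and 12557 in hypoxic monolayer. Its EHT values were 127, 86.3 and 6.83 in normoxia and 977, 1244 and 3.80 in hypoxia. Monolayer normoxia replicate 3 was 20.9-fold below the mean of its group's other libraries for ACTC1, the widest such gap of the 10 genes in that group. Muscle actin genes such as ACTC1, ACTA2 and ACTG2 are near-identical in sequence, so reads assigned to ACTC1 are uncertain to that extent.

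TNNT2, the tropomyosin-binding troponin subunit used as a standard marker of cardiomyocytes, stood at 2308, 2877 and 363 normalised reads in normoxic monolayer. In hypoxic monolayer it reached 10752, 10212 and 9960.0, with no overlap between these groups. In EHT it stood at 273, 139 and 7.69 in normoxia and at 841, 1264 and 38.0 in hypoxia. TNNT2 kept 20 reads in EHT hypoxia replicate 3, where MYH6, MYL3, MYBPC3 and TNNI3 had none.

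TNNI1, the fetal inhibitory subunit, had 454, 1159.9 and 271 normalised reads in normoxic and 2436, 2578 and 2549.9 in hypoxic monolayer. In EHT it had 31.7, 24.8 and 12.8 in normoxia and 269, 493 and 43.7 in hypoxia. It was the only gene of the 10 whose EHT groups did not overlap, and it varied least in normoxic EHT, by 41.4% (coefficient of variation, n = 3). TNNI3, the adult form, was sparse throughout, at 15.5, 41.3 and 46.6 normalised reads in normoxic monolayer and at 31.6, 47.3 and 55.3 in hypoxic monolayer. Its EHT values were 15.8, 5.13 and 1.71 in normoxia and 29.3, 44.3 and 0 in hypoxia. TNNI3 was the only gene that was highest, not lowest, in monolayer normoxia replicate 3.

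At the Z-disc, ACTN2 stood at 412, 577 and 83.0 normalised reads in normoxic and at 1696, 1791 and 2023 in hypoxic monolayer. In EHT it stood at 66.9, 81.2 and 4.27 in normoxia and at 180.0, 246 and 47.5 in hypoxia. ACTN2 kept the most reads of the 10 genes in EHT hypoxia replicate 3, with 25.

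By group means of normalised reads, 9 of 10 genes ran in the order hypoxic monolayer, normoxic monolayer, hypoxic EHT, normoxic EHT. The exception was MYL3, at 202 ± 255 in normoxic monolayer, 194 ± 10.7 in hypoxic monolayer, 66.2 ± 60.6 in hypoxic EHT and 3.15 ± 4.03 in normoxic EHT (SD, n = 3). Not every step in that order was wider than the spread. The monolayer groups were apart for 7 genes, normoxic monolayer and hypoxic EHT overlapped for the 9 genes in which they were neighbours, and the EHT groups overlapped for all genes but TNNI1.

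Together the 10 genes took 0.570 ± 0.0286% of reads in hypoxic monolayer, 0.223 ± 0.162% in normoxic monolayer, 0.0471 ± 0.0403% in hypoxic EHT and 0.00858 ± 0.00799% in normoxic EHT (SD, n = 3). Per library these shares were 0.254, 0.367 and 0.0477% in normoxic monolayer, 0.565, 0.544 and 0.601% in hypoxic monolayer, 0.0165, 0.00865 and 0.000557% in normoxic EHT and 0.0609, 0.0786 and 0.00165% in hypoxic EHT. The share was 26.0-fold lower in EHT than in monolayer in normoxia and 12.1-fold lower in hypoxia. With 1 library left out these folds ran from 17.6 (without monolayer normoxia replicate 2) to 48.4 (without EHT normoxia replicate 1) and from 8.17 (without EHT hypoxia replicate 3) to 18.2 (without its replicate 2). The share was below 1% of reads in every library, although the cultures were labelled as cardiomyocytes. In such bulk samples, fewer cardiomyocytes and less sarcomere RNA per cardiomyocyte cannot be told apart.

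Markers of other cell types were measured beside them. The 8 fibroblast genes (among them COL1A1, COL3A1 and DCN) took 3.33 to 7.04% of reads in every library, more than the sarcomere genes in each. COL1A1 and COL3A1 gave most of these reads in each group, so the share is largely theirs. The genes of this list did not move together. With hypoxia in monolayer, 3 of the 8 rose and 3 fell (limma, adjusted p), where 24% of all genes tested rose and 24.1% fell. The 7 epithelial genes (among them KRT5, KRT17 and EPCAM) took 0.175 to 0.899% in normoxic monolayer, 0.00919 to 0.0103% in hypoxic monolayer, 0.000337 to 0.000794% in normoxic EHT and 0.00134 to 0.0167% in hypoxic EHT. The 9 cardiomyocyte genes outside the sarcomere (RYR2, NPPA, PLN, CASQ2, SLC8A1, ATP2A2, NKX2-5, HCN4 and CKMT2) took 0.0275 to 0.0517, 0.0718 to 0.0851, 0.0240 to 0.0277 and 0.0355 to 0.0663% in the same order of groups. ATP2A2 gave the most reads of this list in each group. In normoxic EHT it had 4523 reads and the next gene, SLC8A1, had 264, so the share there is largely that of ATP2A2. By normalised reads, NPPA, PLN, CASQ2, SLC8A1 and HCN4 were lowest of their group in replicate 3 of both EHT groups. RYR2 and NKX2-5 were lowest there in hypoxia but highest in normoxia. ATP2A2 was lowest there in normoxia (1420.5 normalised reads) and highest in hypoxia (2854). NPPA, the gene of atrial natriuretic peptide, and CASQ2, the calcium store protein, had 0 reads in replicate 3 of both EHT groups, whereas ATP2A2, the calcium pump, had 1663 and 1502 there. In normoxic EHT, replicate 3 held the most reads of RYR2, the calcium release channel (29, against 4 and 4), and of NKX2-5, a cardiac transcription factor (37, against 10 and 16). In hypoxic EHT, replicate 3 held the fewest reads of RYR2 (14, against 69 and 89) and of NKX2-5 (3, against 9 and 21). SLC8A1 (7, against 52 and 48) and PLN (41, against 112 and 142) were lowest there as well. In normoxic EHT these 2 genes were also lowest in replicate 3, at 51.3 and 47.8 normalised reads. The 6 smooth muscle genes (among them ACTA2 and TAGLN) took 0.182 to 0.416, 0.541 to 0.650, 0.210 to 0.299 and 0.135 to 0.147%. Of these, TAGLN alone had a higher mean in normoxic EHT than in normoxic monolayer (15748 against 9603 normalised reads). ACTA2 was among those lower (2201 against 5149). The 4 endothelial genes (PECAM1, CDH5, KDR and TEK) took 0.0191 to 0.0409, 0.0185 to 0.0225, 0.00288 to 0.00631 and 0.00138 to 0.00685%, lowest in EHT hypoxia replicate 3. KDR and TEK gave most of these reads in monolayer, and PECAM1 in normoxic EHT. Mean normalised reads of KDR were lower in EHT than in monolayer (43.8 against 745 in normoxia, 176 against 1618 in hypoxia). Those of PECAM1 were higher (205 against 43.6 and 72.7 against 10.6). What part these other cells had in the levels of the sarcomere genes was not tested.

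**Figure D2:**
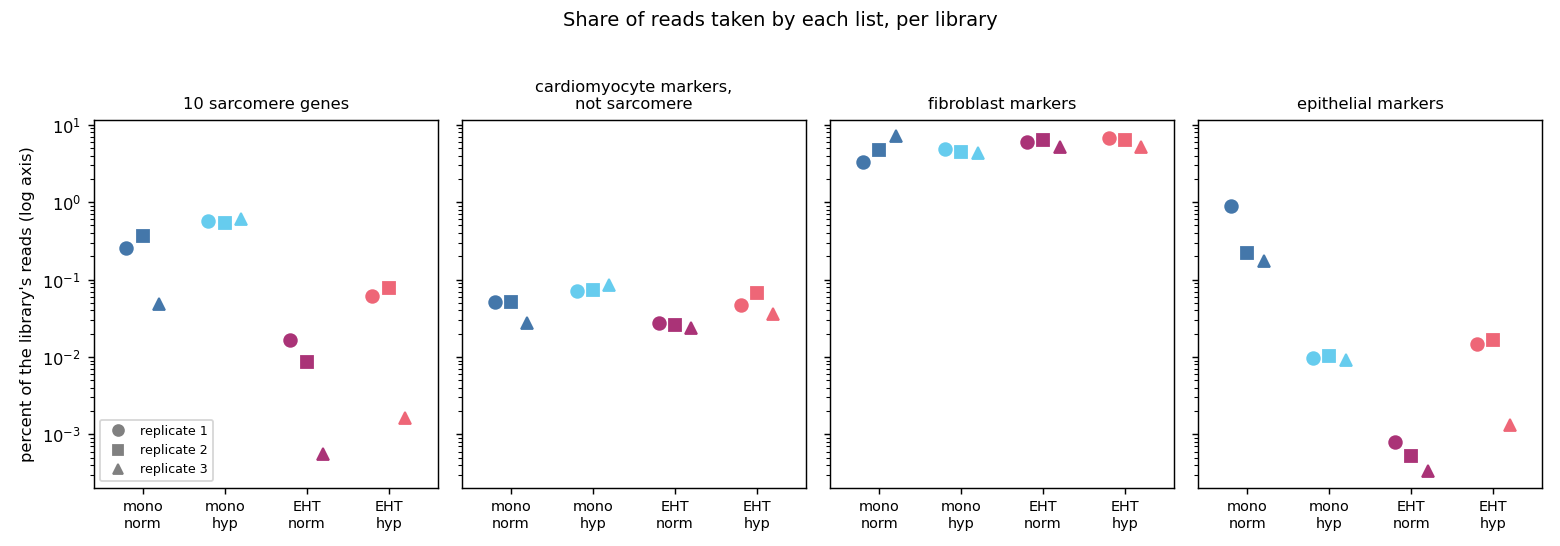
Percent of each library's reads (log axis) taken by the 10 sarcomere genes and by 3 marker lists, per library and group. The sarcomere genes span 0.000557 to 0.601%, and the fibroblast markers, mostly reads of COL1A1 and COL3A1, lie between 3.33 and 7.04%.

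The groups were compared in a limma fit of all 12042 genes, on variance-stabilised log2 values with the libraries rescaled by their median-of-ratios factors, with Benjamini-Hochberg adjustment within each comparison and a threshold of 0.05. For genes with many reads the transformation behaves like log2 of normalised reads plus 16. It compresses differences between libraries with few reads. The log2 differences compare means of log2 values, whereas the folds compare means of normalised reads. A very low library can therefore make a log2 difference larger than log2 of the fold, as for ACTC1 between cultures in hypoxia (5.44 beside 15.9-fold).

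In normoxia, EHT had lower levels than monolayer for 9 of the 10 sarcomere genes (limma, adjusted p), where 24.6% of all genes tested were lower. All 5 thick filament genes fell. MYBPC3 fell by 3.85 on the log2 scale (SE 0.93, adjusted p 0.00500, 50.7-fold by mean normalised reads) and MYL4 fell by 4.25 (SE 1.17, adjusted p 0.0106, 27.4-fold). MYH6 fell by 4.95 (SE 1.59, adjusted p 0.0236, 21.8-fold), MYL7 by 4.76 (SE 1.52, adjusted p 0.0231) and MYL3 by 3.37 (SE 0.94, adjusted p 0.0114). On the thin filament, TNNI1 fell by 3.88 (SE 0.64, adjusted p 4.04e-04, 27.2-fold), TNNT2 by 3.80 (SE 1.16, adjusted p 0.0181) and ACTC1 by 4.35 (SE 1.48, adjusted p 0.0303). ACTN2 fell by 2.52 (SE 0.74, adjusted p 0.0149), which was a 7.03-fold lower mean. TNNI3 differed by -1.31 (SE 0.61, adjusted p 0.103), and its groups overlapped. The other 9 genes were lower in every EHT library than in any monolayer library, where 30.9% of all genes were. The median difference over the 10 genes was -3.87, against -0.06 over all genes tested.

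Several of these calls in normoxia were lost when 1 library was left out, with differences in the same direction. Without monolayer normoxia replicate 1, 4 genes were called lower, without its replicate 2 there were 3, and without EHT normoxia replicate 3 there were 4, and MYH6, TNNT2, ACTC1, MYL7 and ACTN2 lost their call in each case. Their differences were then -4.62, -3.42, -3.69, -4.53 and -2.24 without monolayer normoxia replicate 1 and -3.58, -2.69, -3.48, -3.32 and -1.71 without EHT normoxia replicate 3, in the same order of genes. MYBPC3, MYL4 and TNNI1 were called with any 1 library left out, and MYL3 was lost without monolayer normoxia replicate 2 and ACTC1 also without EHT normoxia replicate 2. By voom, however, MYBPC3 (adjusted p 0.110), MYL4 (adjusted p 0.0518), MYL3 (adjusted p 0.117) and ACTC1 (adjusted p 0.0932) missed the threshold. Without replicate 3 of both EHT groups, all 10 genes were called lower, TNNI3 by 1.03 (adjusted p 0.0297). All 10 were also called without EHT hypoxia replicate 3 alone, with TNNI3 at -1.31 (adjusted p 0.00887).

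In hypoxia, EHT was lower than monolayer for 8 of the 10 genes (limma, adjusted p), where 22.4% of all genes tested were lower, and 9 were lower in every library without overlap, where 28.6% of all genes were. The largest differences were those of ACTC1, which fell by 5.44 on the log2 scale (SE 1.48, adjusted p 0.0111, 15.9-fold), and MYH6, which fell by 5.42 (SE 1.59, adjusted p 0.0164, 13.0-fold). MYL7 fell by 5.33, TNNT2 by 4.73, MYL4 by 4.65 and MYBPC3 by 4.14, with adjusted p of 0.0143, 0.00620, 0.00719 and 0.00372. ACTN2 fell by 3.64 (adjusted p 0.00200, 11.6-fold) and TNNI1 by 3.63 (adjusted p 8.29e-04, 9.39-fold). All 8 kept their call with any 1 library left out, but without EHT hypoxia replicate 3 the differences of MYH6, ACTC1, MYL7 and MYL4 shrank to -3.08, -3.39, -3.21 and -3.03. By voom MYBPC3 missed the threshold (-4.99, adjusted p 0.0837). MYL3 differed by -2.15 (SE 0.94, adjusted p 0.0842), and by -0.89 without EHT hypoxia replicate 3. TNNI3 differed by -1.08 (SE 0.61, adjusted p 0.177). Of its values in the other hypoxic EHT libraries, 44.3 lay within the hypoxic monolayer range of 31.6 to 55.3 and 29.3 just below it.

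**Figure D3:**
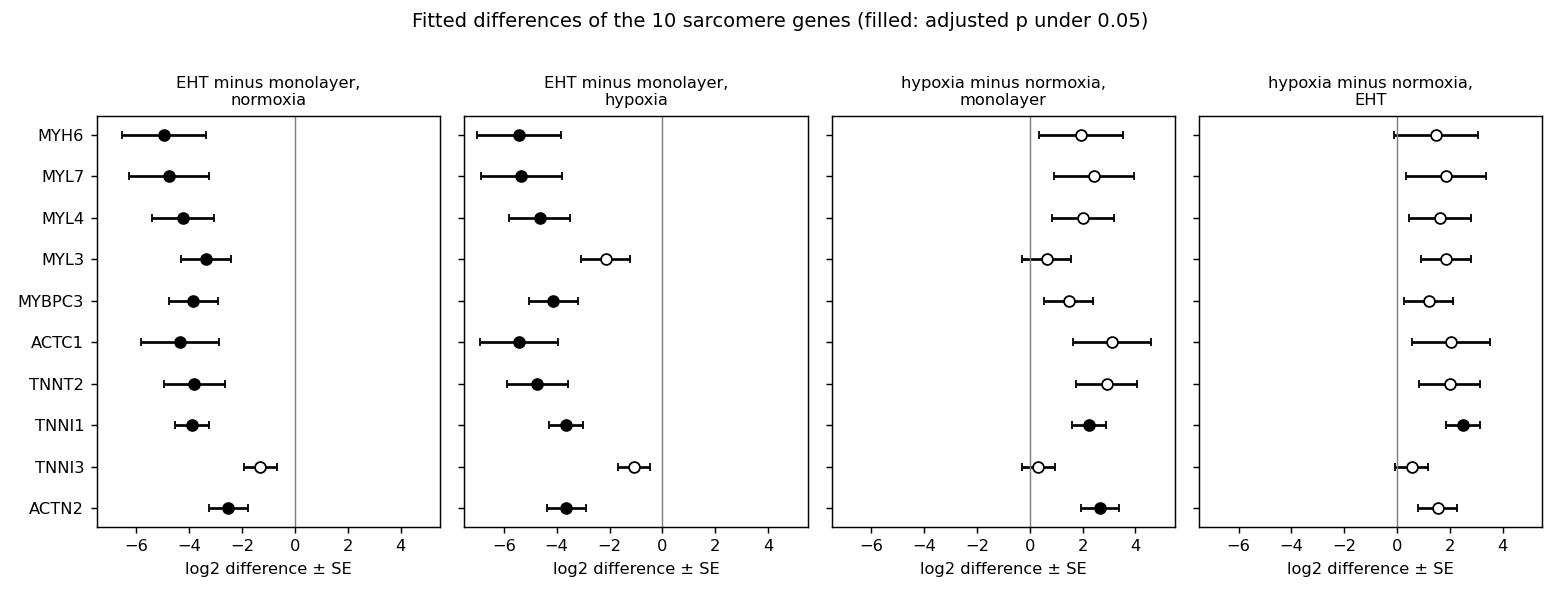
Log2 difference ± SE of each gene from the limma fit in 4 comparisons, with filled points where the adjusted p was under 0.05. Filled points number 9, 8, 2 and 1 from left to right.

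With hypoxia, 2 of the 10 genes rose in monolayer (limma, adjusted p), where 24% of all genes tested were higher. ACTN2 rose by 2.66 on the log2 scale (SE 0.74, adjusted p 0.00982, 5.14-fold) and TNNI1 by 2.23 (SE 0.64, adjusted p 0.0120, 4.01-fold). All 10 differences were positive, at 0.33 to 3.13, and 7 genes were higher in each hypoxic than in any normoxic monolayer, where 31% of all genes were. Those that missed the threshold without overlap were TNNT2, at 2.92 (SE 1.16, adjusted p 0.0528), ACTC1, at 3.13 (SE 1.48, adjusted p 0.0992), MYL7, at 2.43 (adjusted p 0.207), MYL4, at 2.02 (adjusted p 0.172), and MYH6, at 1.93 (adjusted p 0.337). MYBPC3, at 1.48, MYL3, at 0.64, and TNNI3, at 0.33, overlapped between groups.

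How many of the 10 genes were called higher in hypoxic monolayer depended on libraries of other groups, which share the estimate of the spread. Without replicate 3 of both EHT groups, 8 genes were called, all but MYL3 and TNNI3, with the same differences and adjusted p of 1.56e-04 (TNNI1) to 0.0499 (MYBPC3). With the 2 monolayer groups fitted alone, 7 were called. Without EHT hypoxia replicate 3, 6 were called. Without EHT normoxia replicate 3, TNNT2 (2.92, adjusted p 0.0299) was called beside ACTN2 and TNNI1. Without monolayer normoxia replicate 3, 1 was called, since TNNI1 then had an adjusted p of 0.0553 at a difference of 1.77. TNNT2 and ACTC1 then differed by 1.99 and 1.71, and the smallest of the 10 differences was 0.29, that of MYL3. Beside these values, the epithelial share was 0.432 ± 0.405% in normoxic and 0.00974 ± 5.79e-04% in hypoxic monolayer (SD, n = 3). All 7 epithelial genes tested fell, where 24.1% of all genes tested did. At the same time 6 of 8 cardiomyocyte genes outside the sarcomere rose, where 24% of all genes tested did (3 of the 8 without monolayer normoxia replicate 3 or monolayer hypoxia replicate 3). The part of these changes in the result for the sarcomere genes was not tested.

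In EHT, TNNI1 alone of the 10 genes rose with hypoxia (limma, adjusted p), where 19.5% of all genes tested were higher. TNNI1 rose by 2.48 on the log2 scale (SE 0.64, adjusted p 0.00880, 11.6-fold), from 23.1 ± 9.56 to 269 ± 224 normalised reads (SD, n = 3), and was the only gene of the 10 with groups apart, where 22.6% of all genes were. By voom weights on the recovered reads TNNI1 missed the threshold (3.32, adjusted p 0.0751). The other 9 differed by 0.55 (TNNI3) to 2.04 (ACTC1), with adjusted p of 0.119 to 0.512. Whether replicate numbers pair the EHT libraries is not known. If they do, and replicate number is a block in a limma fit of the EHT groups alone, TNNT2 (1.99, adjusted p 0.0131), ACTN2 (1.53, adjusted p 0.0125) and MYL7 (1.86, adjusted p 0.0463) were called higher as well.

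These values depended on replicate 3 of either EHT group. Without EHT hypoxia replicate 3 all 10 genes were called higher, among them ACTC1 at 4.08 (adjusted p 0.00654), MYL7 at 3.98 (adjusted p 0.00830) and MYH6 at 3.79 (adjusted p 0.00834). Without EHT normoxia replicate 3, TNNI1 alone was called (2.25, adjusted p 0.0308). MYH6, MYL7, TNNT2 and ACTN2 then differed by 0.094, 0.41, 0.87 and 0.72, against 1.46, 1.86, 1.99 and 1.53 with all libraries. Without replicate 3 of both EHT groups, 8 were called, with MYH6 at 2.42 (adjusted p 0.00417) and ACTC1 at 3.21 (adjusted p 0.0137), and MYBPC3 (1.79, adjusted p 0.0625) and ACTN2 (1.34, adjusted p 0.0617) were not. The mean share of reads of the 10 genes was 5.48-fold higher in hypoxic than in normoxic EHT, at 0.0471 against 0.00858%, and the ranges of 0.000557 to 0.0165% and 0.00165 to 0.0786% overlapped. With 1 library left out this fold ran from 3.65 (without EHT hypoxia replicate 2) to 10.2 (without EHT normoxia replicate 1), and it was 8.13 without EHT hypoxia replicate 3.

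A difference between EHT and monolayer in the response to hypoxia was not detected for any of the 10 genes. The interaction term of the limma fit called 0 of 10, against 27% of all genes tested (13.6% higher and 13.4% lower), with 0 at an unadjusted p under 0.05 (smallest 0.300) and 0 by voom. Its estimates ran from -1.13 for ACTN2 to 1.22 for MYL3, with standard errors of 0.87 to 2.25, and a difference in response of the size of these errors was not detectable. The sign of the interaction turned for 5 genes without replicate 3 of both EHT groups. The 4 comparisons share groups, and each is given by its own values for that reason.

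The genes were also read against each other within a library, where depth cancels. Ratios are log2 of reads of one gene over reads of another, with no correction for length, so their changes and not their levels are informative. The adult-to-fetal ratio TNNI3/TNNI1 was -4.87, -4.81 and -2.54 in normoxic monolayer, -6.27, -5.77 and -5.53 in hypoxic monolayer, -1.0, -2.27 and -2.91 in normoxic EHT, and -3.20 and -3.47 in hypoxic EHT replicates 1 and 2. Among libraries with reads of both genes, hypoxic monolayer was the lowest group without overlap, and normoxic EHT overlapped monolayer normoxia replicate 3 only. EHT hypoxia replicate 3 had 0 reads of TNNI3 and 23 of TNNI1, so its ratio is undefined and cannot be placed above the hypoxic monolayers. The normoxic EHT ratios rest on 9, 6 and 2 reads of TNNI3 and 18, 29 and 15 of TNNI1.

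The ventricular-to-atrial light chain ratio MYL3/MYL7 was -6.19, -3.33 and -3.44 in normoxic monolayer and -5.93, -5.95 and -6.05 in hypoxic monolayer. In hypoxic EHT replicates 1 and 2 it was -3.72 and -3.77, above all hypoxic monolayers, with 57 and 94 reads of MYL3. Replicate 3 of that group had 0 reads of MYL3 and 2 of MYL7, so it has no ratio. In normoxic EHT replicates 1 and 2 it was -7.49 and -4.18, on 1 and 9 reads of MYL3, so that 1 EHT library lay below every monolayer. The 3 normoxic monolayers thus spread over both values, with replicate 1 beside the hypoxic monolayers and replicates 2 and 3 beside hypoxic EHT. MYL3/MYL4, which sets both essential light chains against each other, gave -4.85, -1.85 and -1.46 in normoxic monolayer, -3.94, -3.90 and -4.14 in hypoxic monolayer, -5.36 and -2.47 in normoxic EHT replicates 1 and 2, and -1.82 and -1.98 in hypoxic EHT replicates 1 and 2. No test was run on ratios.

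**Figure D4:**
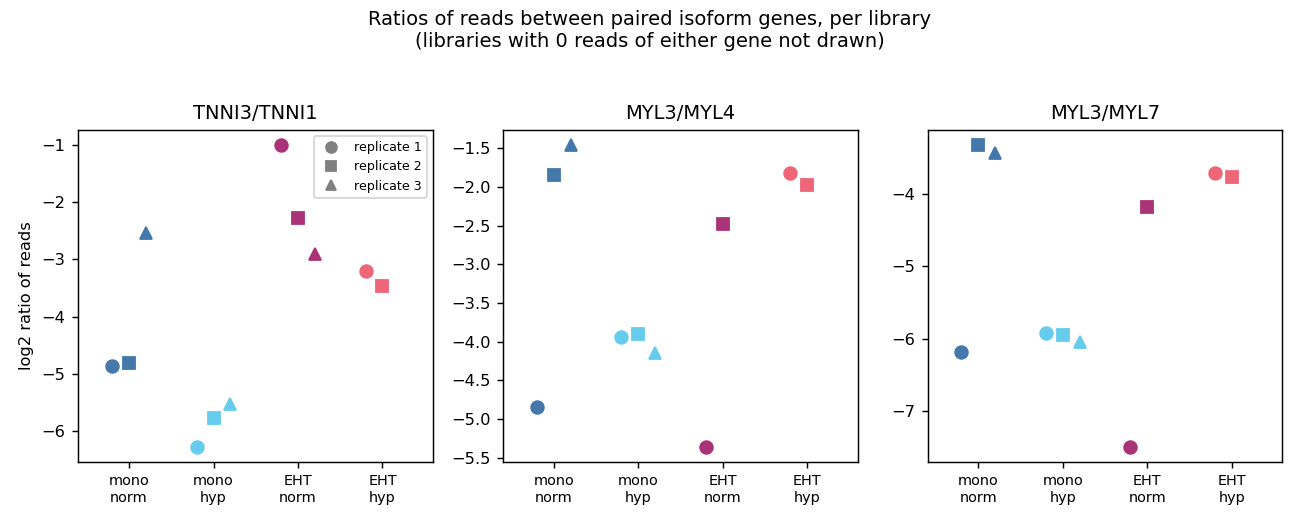
Log2 ratio of reads for TNNI3/TNNI1, MYL3/MYL4 and MYL3/MYL7 in each library, leaving out libraries with 0 reads of either gene. Hypoxic monolayers cluster between -6.27 and -5.53 for TNNI3/TNNI1 and between -6.05 and -5.93 for MYL3/MYL7.

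Across the 12 libraries the 10 genes moved closely together, as a description of libraries that share depth and cell content. Over 45 pairs of genes the median Pearson correlation of log2 values was 0.946, from 0.722 for ACTN2 with TNNI3 to 0.995 for MYH6 with MYL7. Taken on deviations from the group means, the median was 0.893, from 0.494 to 0.993. Without the 3 low libraries it was 0.964 (9 libraries, 0.724 to 0.996). TNNI3 and MYL3 had the lowest median correlation with the rest, at 0.818 and 0.899, and MYL4 the highest, at 0.985.

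The genes outside the set whose pattern was most like the mean of the 10 over 12 libraries were ITGA7 (r = 0.983), TNNC1 (0.981), TRDN (0.977), LPL (0.974) and SNAP91 (0.973). TNNC1 encodes cardiac troponin C, the calcium-binding partner of TNNT2 and TNNI3, TRDN is triadin of the calcium release unit, and ITGA7 is a laminin receptor of muscle. TNNC1 stood at 262, 503 and 40.7 normalised reads in normoxic monolayer, 929, 989 and 876 in hypoxic monolayer, 38.7, 15.4 and 2.56 in normoxic EHT and 128, 261 and 7.60 in hypoxic EHT. Replicate 3 was its lowest library in normoxic monolayer and in both EHT groups.

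The other listed genes of the sarcomere, which include skeletal forms, did not all share this pattern. MYH7 and TTN were not analysed and MYL2 fell under the filter, so these lists cannot show how the cardiac sarcomere as a whole behaved. Correlation with the mean of the followed genes was 0.959 for MYOM1 and 0.816 for TMOD1. It was 0.610 for TPM1, 0.137 for NEBL and -0.0715 for the skeletal form TNNI2. Among 11 other thick filament genes tested, 2 were lower and 0 higher in normoxic EHT than in normoxic monolayer (limma, adjusted p), where 24.6% of all genes tested were lower and 19.2% higher. The lower ones numbered 1 when replicate 2 of normoxic monolayer or replicate 3 of normoxic EHT was left out and 4 without EHT hypoxia replicate 3, and 1 was higher without replicate 3 of either EHT group. MYOM1, the M-band protein that links thick filaments, differed by -1.96 (adjusted p 0.0347, and 0.11, 0.129 and 0.145 without monolayer normoxia replicate 1, its replicate 2 or EHT normoxia replicate 3). MYBPC2, the fast skeletal relative of MYBPC3, had 0 reads in all 3 normoxic EHT libraries against a mean of 37.5 normalised reads in monolayer. In hypoxia, MYOM1 fell by 3.60 (adjusted p 0.00136) and MYBPHL, an atrial relative of MYBPC3, fell by 3.02 (adjusted p 1.84e-04). In that comparison 2 other thick filament genes were higher and 2 lower, where 17.9% of all genes tested were higher and 22.4% lower. The higher thick filament genes numbered 1 without any hypoxic monolayer library or EHT hypoxia replicate 2 and 5 without EHT hypoxia replicate 3.

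Of 14 other thin filament genes tested, 3 were higher and 5 lower in normoxic EHT, where 19.2% of all genes tested were higher and 24.6% lower. Without monolayer normoxia replicate 1 or 2, 1 of the 14 was lower, and without EHT normoxia replicate 3, 2 were. TNNC1 was lower by 2.83 (adjusted p 0.0217, lost without EHT normoxia replicate 3 and without replicate 1 or 2 of normoxic monolayer, at up to 0.0979, and 0.0945 by voom). TNNT1, the slow skeletal troponin T, fell by 3.12 (adjusted p 2.69e-05). The tropomyosins TPM2 and TPM4, which lie along actin, rose by 1.01 (adjusted p 0.00205) and 0.74 (adjusted p 0.00141). Which cells these reads came from was not tested. On the authors' own scaling TPM2 and TPM4 were not called (0.51, adjusted p 0.446, and 0.069, adjusted p 0.931). In hypoxia, 5 were higher and 4 lower in EHT, where 17.9% of all genes tested were higher and 22.4% lower. Of the 14, 3 were higher without monolayer normoxia replicate 2, EHT hypoxia replicate 2 or any hypoxic monolayer library. TPM1, the main cardiac tropomyosin, fell by 1.97 (adjusted p 7.72e-04), and TMOD1, which caps actin at its pointed end, fell by 1.94 (adjusted p 0.00904). TNNI2, the fast skeletal inhibitory subunit, rose by 2.07 (adjusted p 0.00440), and stood at 70.3 ± 62.3 normalised reads in hypoxic EHT against 5.02 ± 2.77 in hypoxic monolayer.

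Of 9 genes tested that build and turn over filaments, 6 were lower and 0 higher in EHT in normoxia, where 24.6% of all genes were lower, and 6 lower and 0 higher in hypoxia, where 22.4% were. UNC45B, the chaperone that folds myosin heads, fell by 3.12 in normoxia (adjusted p 4.27e-04) and by 3.13 in hypoxia (adjusted p 5.50e-04). TRIM63, the ubiquitin ligase MuRF1, fell by 2.72 in normoxia (adjusted p 0.00384). FHOD3, a formin needed for cardiac actin filaments, fell by 3.75 in hypoxia (adjusted p 1.93e-04), as did MYLK3, the cardiac myosin light chain kinase, by 2.54 (adjusted p 5.20e-04).

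Within monolayer, 3 of 11 other thick filament genes, 4 of 14 thin filament genes and 4 of 9 assembly genes rose with hypoxia, where 24% of all genes tested rose. In the same lists 0, 2 and 0 fell, where 24.1% of all genes tested fell. MYBPHL rose by 1.96 (adjusted p 0.00216), TPM2 by 2.03 (adjusted p 1.01e-05) and NEBL, a nebulin relative of the cardiac Z-disc, by 1.96 (adjusted p 1.86e-05). TPM3 fell by 0.63 (adjusted p 0.00120, and 0.0791 on the authors' own scaling). Without hypoxic monolayer replicate 1 or 2, 1 thick filament gene rose. Of the assembly genes 2 rose without any hypoxic monolayer library, EHT normoxia replicate 1 or EHT hypoxia replicate 2, and 0 without monolayer normoxia replicate 3, as FHOD3 (1.76, adjusted p 0.0152) and HSPB7 (1.33, adjusted p 0.0105) then had 0.0573 and 0.0503, and HSPB7 had 0.171 on the authors' own scaling.

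Within EHT, 3 of 11 other thick filament genes, 6 of 14 thin filament genes and 2 of 9 assembly genes rose with hypoxia, where 19.5% of all genes tested rose. In the same lists 0, 2 and 0 fell, where 18.6% of all genes tested fell. Without EHT hypoxia replicate 3, 5 thick filament and 5 assembly genes rose. Without EHT hypoxia replicate 2, 3 thin filament and 1 assembly gene rose, without EHT normoxia replicate 2, 1 assembly gene rose, and of the 2 thin filament genes that fell 0 did so without EHT normoxia replicate 1 or 2 and 1 without EHT hypoxia replicate 1 or 2. NEBL rose by 1.47 (adjusted p 2.58e-04) and HSPB7, a small heat shock protein of heart, by 2.10 (adjusted p 8.85e-04). The skeletal troponins TNNT1 and TNNT3 rose by 1.87 (adjusted p 0.00149) and 3.56 (adjusted p 0.00158), and TNNT1 missed the threshold by voom (adjusted p 0.0522). TNNT1 was at 81.7 or more normalised reads in each of the 3 hypoxic EHT libraries.

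The non-muscle relatives of the sarcomere genes, such as MYH9, MYL6, ACTB and ACTN1, serve contraction in other cells. Of 8 tested, 5 were higher and 1 lower in normoxic EHT, where 19.2% of all genes tested were higher and 24.6% lower. The higher ones of the 8 numbered 1 when replicate 3 of normoxic monolayer or replicate 2 of normoxic EHT was left out, 2 when replicate 2 of normoxic monolayer or replicate 1 of normoxic EHT was left out, and 3 without any hypoxic monolayer library or EHT hypoxia replicate 2. MYL6, the non-muscle essential light chain, rose by 0.60 (adjusted p 0.00718), but differed by -0.0755 on the authors' own scaling. MYH14, a non-muscle myosin heavy chain of epithelia, fell by 5.27 (adjusted p 1.70e-07), from 1083 ± 288 to 14.6 ± 8.08 normalised reads. In EHT, 6 fell and 1 rose with hypoxia, where 18.6% of all genes tested fell and 19.5% rose. Without EHT normoxia replicate 1 or 2 or EHT hypoxia replicate 1, 3 fell. ACTB fell by 1.0 (adjusted p 0.00252) and ACTN4 by 0.82 (adjusted p 0.00219), neither of which was called on the authors' own scaling (adjusted p 0.371 and 0.514).

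The 10 regulators of muscle genes were split. In normoxic EHT, MYOCD, a coactivator of serum response factor, fell by 2.69 (adjusted p 0.00176), GATA4 by 2.16 (adjusted p 0.00365) and TBX5 by 1.07 (adjusted p 0.00325). Of the 10, 4 fell in all, where 24.6% of all genes tested were lower. MEF2A and MEF2D rose by 1.42 (adjusted p 5.90e-05) and 0.83 (adjusted p 0.00162), and neither was called on the authors' own scaling (0.75, adjusted p 0.231, and 0.19, adjusted p 0.796). In hypoxic EHT 6 fell and 0 rose (1 rose without hypoxic monolayer replicate 3 or EHT hypoxia replicate 2), where 22.4% of all genes tested were lower. NKX2-5 fell by 3.74 (adjusted p 1.64e-04) and GATA4 by 3.21 (adjusted p 3.41e-04). With hypoxia, 6 rose and 2 fell in monolayer, where 24% of all genes tested rose and 24.1% fell. There MEF2D rose by 1.33 (adjusted p 4.39e-05) and SRF, serum response factor, fell by 1.41 (adjusted p 9.96e-04). MEF2D was not called on the authors' own scaling (adjusted p 0.168), and 1 regulator fell when any of 7 libraries was left out. In EHT 0 regulators rose and 2 fell with hypoxia, where 19.5% of all genes tested rose and 18.6% fell. Without EHT hypoxia replicate 3, 2 regulators rose, without its replicate 1, 1 rose, and without EHT normoxia replicate 2 or EHT hypoxia replicate 2, 1 fell. SRF fell by 1.38 in EHT (adjusted p 0.00174, and 0.111 on the authors' own scaling).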

How the data were processed

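RNA was taken with the RNeasy Mini Kit and sequenced with the Ion Total RNA-Seq Kit v2 on the Ion Proton, per the labels' protocols. HISAT2, featureCounts and DESeq2 are named in the submitters' processing notes. No version, genome build, annotation or strand setting is given in the sources used here. The deposited values are variance-stabilised log2 values. Inverting the transformation gave whole reads within 0.01 for 100% of values. The authors' scaling factors ran from 0.412 to 1.42 times median-of-ratios factors, so the reads were rescaled by the latter and transformed again, with limma (version 3.58.1, R 4.3.3, trend and 1 mean per group) fitted to the 12042 genes whose mean exceeded the value of 0 reads by 1 log2 unit or more. This moved the median difference of all genes by 0.60, -0.00388, 0.40, -0.17 and -0.58 in the order EHT against monolayer in normoxia and hypoxia, hypoxia against normoxia in monolayer and EHT, and interaction. Between the EHT groups, deviations from group means of samples with the same replicate number correlated over genes at 0.114, 0.251 and 0.307. In other pairs of groups such correlations reached 0.297, for replicate 2 of monolayer normoxia and EHT hypoxia, and some were negative. Samples with different numbers were not compared and the labels do not explain the numbers, so the pairing used in the block is assumed. Named are the 10 genes, up to 3 called genes with the smallest p in each list, direction and comparison, the 5 genes most like their mean, and the partners in ratios; MYL2, NPPA and CASQ2 were singled out after their values were seen. Some genes counted in the lists are not reported here by name. The sarcomere genes and all lists were chosen with earlier results of these data known. Alternatives were the deposited scaling, median centring, voom, other filters, a replicate block, the compared groups alone and leaving out libraries. Steps were checked on simulated data with the same dispersion for every gene and no outlying library. That check does not bear on calls affected by the low libraries described above.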

Additional observations from a re-analysis of the deposited data

Results flagged for a closer look

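None of the 10 sarcomere genes was called for a difference between EHT and monolayer in the response to hypoxia, where 27% of all genes tested were. The listed relatives tested were 11 thick filament, 14 thin filament, 9 assembly, 8 non-muscle and 10 regulator genes, and 20 of them were called. Of these 20 relatives, 16 selected by the naming rule are given (interaction term of the limma fit, Benjamini-Hochberg adjustment, difference in EHT minus that in monolayer). Among thick filament genes these were MYBPC2 at 2.55 (adjusted p 0.00217), a fitted value that leans on normoxic EHT libraries all at 0 reads, and MYBPHL at -2.36 (adjusted p 0.0118, and 0.0762 by voom). Among thin filament genes they were the troponins TNNT1 at 2.40 (adjusted p 0.00458), TNNI2 at 2.67 (adjusted p 0.0118) and TNNT3 at 3.64 (adjusted p 0.0156, and 0.0747 by voom). The tropomyosins TPM2, TPM4 and TPM1 stood at -1.90, -1.09 and -1.86 (adjusted p 7.72e-04, 0.00234 and 0.0137).

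FHOD3, the formin, stood at -3.15 (adjusted p 0.00852). Among non-muscle relatives, MYH14 stood at 4.40 (adjusted p 3.23e-05), MYL9 at -2.60 (adjusted p 1.60e-04), MYL6 at -0.99 (adjusted p 0.00541) and ACTN1 at -1.46 (adjusted p 0.0215, lost without EHT normoxia replicate 2 or EHT hypoxia replicate 1, at up to 0.0508). Among regulators, TEAD1 stood at -1.37 (adjusted p 0.00318), MEF2D at -1.02 (adjusted p 0.00728) and MEF2A at -0.94 (adjusted p 0.0176). Apart from ACTN1, these calls held with any 1 library left out. On the deposited scaling 9 of them were lost, those of TPM2, TPM4, TPM1, MYL9, MYL6, ACTN1, TEAD1, MEF2D and MEF2A, with the same direction and adjusted p of 0.0529 to 0.856.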

How the results depend on the processing

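All differences of the 10 genes between EHT and monolayer kept their direction under every alternative, and those between hypoxia and normoxia did so but for TNNI3 in monolayer, at -0.044 on the deposited values and from -0.00160 to 0.53 with 1 library left out. The counts of calls did not hold as well, and causes of the changes were not tested. On the deposited values, all genes called numbered 3383, 1549, 2921, 1125 and 1218 in the 5 comparisons (main 5271, 4844, 5790, 4584 and 3251, in the order EHT against monolayer in normoxia and hypoxia, hypoxia against normoxia in monolayer and EHT, interaction). The split between higher and lower was then 325 and 3058, 606 and 943, 535 and 2386, 857 and 268, and 1116 and 102, against 2310 and 2961, 2152 and 2692, 2893 and 2897, 2348 and 2236, and 1635 and 1616 after rescaling. On the same values, sarcomere genes called with hypoxia numbered 7 in monolayer and 8 in EHT (main 2 and 1), and listed genes 13 in EHT with hypoxia and 11 for the interaction (main 22 and 20). By voom 5 sarcomere genes were called in EHT against monolayer in normoxia, 5 with hypoxia in monolayer and 0 in EHT. With no filter, which tests more genes, the calls were 4 and 5 sarcomere genes between cultures (main 9 and 8), and 19 and 14 listed genes in EHT against monolayer in normoxia and with hypoxia in EHT (main 29 and 22). With the groups compared alone, 7 were called in monolayer. With replicate number as a block, sarcomere genes called with hypoxia numbered 5 in monolayer and 3 in EHT, MYL3 was also called in EHT against monolayer in hypoxia (adjusted p 0.0339), and in the EHT groups alone 4 were called and 3037 of all genes; no other count moved by over 1.5 times under the block. Without replicate 3 of both EHT groups, an alternative chosen after seeing the data as was the block in EHT alone, 8 rose in each culture.

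With 1 library left out, sarcomere genes called ranged from 3 to 10, 8 to 9, 1 to 6, 1 to 10 and 0 to 0 in the same 5 comparisons, listed genes from 16 to 33, 23 to 30, 18 to 29, 13 to 30 and 17 to 26, and all genes from 4276 to 6007, 3660 to 4993, 4712 to 6571, 3543 to 5548 and 2375 to 4239. The interaction of the sarcomere genes, never called, changed sign most: by voom MYH6 stood at 0.86, TNNT2 at 0.031, MYL7 at 1.0, MYL4 at 0.73 and MYBPC3 at 1.19, MYL4 stood at 0.0084 on the deposited values, and TNNI3 at -0.18 with median centring. Without both replicates 3 of EHT, MYH6 stood at 0.49, ACTC1 at 0.087, MYL7 at 0.10, MYL4 at 0.40 and MYBPC3 at 0.31. With 1 library left out, the interaction ran from -1.84 to 1.86 for MYH6, -2.04 to 0.50 for TNNT2, -2.19 to 0.95 for ACTC1, -2.02 to 1.55 for MYL7, -1.38 to 1.22 for MYL4, -1.09 to 0.82 for MYBPC3, -0.40 to 1.15 for TNNI1 and -0.33 to 1.10 for TNNI3. Where a gene had 0 to 10 reads in a library, a few reads would change its ratio or fold.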
